A study of Mus musculus with 4 samples.

Results

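Accessible regions were described at the loci of 6 genes that encode transcription factors of the myeloid lineage: Spi1, Cebpa, Cebpb, Irf8, Runx1 and Gfi1. Members were all peaks of the merged peak set that overlap a fixed window around each gene on the mouse genome GRCm39. This rule used positions and no measured value, but the members were chosen with earlier results of these data known. The windows of Cebpa and Irf8 were set to include enhancers downstream of the gene. The rule gave 87 of 57090 peaks, with 11 at Spi1, 11 at Cebpa, 16 at Cebpb, 15 at Irf8, 26 at Runx1 and 8 at Gfi1, and all 87 lay wholly inside their window. The windows were chr2:90890000-90960000 for Spi1, chr7:34800000-34870000 for Cebpa, chr2:167500000-167560000 for Cebpb, chr8:121440000-121560000 for Irf8, chr16:92380000-92640000 for Runx1 and chr5:107840000-107890000 for Gfi1. Which exon, intron or neighboring gene lies under a peak was not analysed here, because an annotation of GRCm39 was not used, so peaks are given by their identifier and position. In each locus the peak with the highest mean level is called the leading peak, which does not say that it is a promoter.

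The assay was ATAC-seq, in which a transposase cuts open chromatin and leaves sequencing adapters at the cut. Bone marrow monocytes of C57BL/6J mice at 2 mo of age were compared between 2 skeletal sites, femur and mandible, with 2 libraries per site and 20000 cells per library. The mice carried no engineered allele and received no agent according to the labels, which give skeletal site as the only difference between the groups. The labels give male mice and CD11b+ cells, whereas the paper describes mice of both sexes and monocytes collected as the unbound fraction of a negative selection. Marrow of 4 mice was pooled for each batch, and each batch gave 1 femur and 1 mandible library, so animals within a library cannot be told apart. Femur replicate 1 and mandible replicate 1 form batch A, and femur replicate 2 and mandible replicate 2 form batch B. The cell type could not be checked against marker genes, since peaks were not assigned to genes, and no other cell type in the isolate was measured. In such a bulk isolate, fewer cells with an open region and a region less open in each cell cannot be told apart.

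Total counts in peaks ranged from 27464565 to 75294068 per library. Both femur libraries (44065130 and 75294068) were deeper than both mandible libraries (31976492 and 27464565), so depth differed along with the site. The deepest library was femur replicate 2. This library also stood apart in profile. The SD of the log2 difference between libraries over all peaks was 0.430 to 0.498 for the 3 pairs with femur replicate 2 and 0.269 to 0.342 for the 3 pairs without it. Where leaving out this library moved the log2 fold change of a peak described here by over 1.5 times, the value without it is given. Levels are CPM, reads of a peak scaled by the size of the library, after loess normalization, and fold changes are log2 of mandible over femur from edgeR's quasi-likelihood test, fitted over all 57090 peaks. An exact permutation test of 2 libraries against 2 reaches a two-sided p of 0.333 at the lowest, so the tests and intervals rest on the spread that edgeR shares between peaks. The 95% intervals given for single peaks are not adjusted for the number of peaks.

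The 6 proteins form part of the circuit that directs blood progenitors toward monocytes or granulocytes. PU.1, encoded by Spi1, is an ETS-family factor that opens chromatin at myeloid enhancers, and C/EBPα and C/EBPβ, encoded by Cebpa and Cebpb, are basic leucine zipper factors of granulocyte-monocyte progenitors and of maturing or activated myeloid cells. IRF8 binds DNA with PU.1 and favors monocytes over granulocytes, RUNX1 is needed for the first blood stem cells and binds enhancers of Spi1, and GFI1 is a repressor that favors granulocytes over monocytes.

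Promoter sequences of the genes were taken from RefSeq (GRCm38.p6), and 5 of the 6 genes matched, with 8 promoters in all. Spi1 had no entry. These windows run from 250 bases before to 50 bases after each listed start, and are set beside the peaks by gene name alone, since their build differs from that of the peaks. They were searched on both strands for 5 short motifs, which are read here as letters and not as bound sites. The motifs, with the share of 32851 mouse promoters of the same length that hold each one, were GAGGAA for PU.1 and other ETS factors (28.3%), TTGCNNAA for C/EBP (10.8%), TGTGGT for RUNX (16.8%), AANNGAAA for IRF (23.9%) and TATAAA for a TATA box (13.6%). The 3 promoters below are shown by the 250 bases before the start, 5′ to 3′ on the gene's strand, with the match in capitals. They are examples, each with a member factor's motif or a TATA box near the usual distance from the start. Other promoters with such matches are listed after them. Whether any motif was more common here than in all promoters was not tested.

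The Cebpa sequence is chr7:35119043-35119292 (plus strand), with a TATA box 30 bases before the start:
Cebpa: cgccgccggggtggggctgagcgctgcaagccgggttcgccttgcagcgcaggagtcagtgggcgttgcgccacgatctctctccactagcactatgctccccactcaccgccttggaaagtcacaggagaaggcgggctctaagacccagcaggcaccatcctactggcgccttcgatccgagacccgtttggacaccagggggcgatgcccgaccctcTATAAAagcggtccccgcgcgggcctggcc

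The second listed start of Runx1 lies at chr16:92697330-92697579 (minus strand) and holds a PU.1 motif, read on the opposite strand, 46 bases before the start:
Runx1 start 2: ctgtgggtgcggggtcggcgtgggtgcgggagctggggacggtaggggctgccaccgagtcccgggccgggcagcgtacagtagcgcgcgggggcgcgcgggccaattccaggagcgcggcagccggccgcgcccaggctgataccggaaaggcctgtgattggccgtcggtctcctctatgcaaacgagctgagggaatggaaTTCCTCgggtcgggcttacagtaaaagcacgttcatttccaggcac

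The first listed start of Gfi1 is preceded by chr5:107725806-107726055 (minus strand), with a C/EBP motif 143 bases before the start:
Gfi1 start 1: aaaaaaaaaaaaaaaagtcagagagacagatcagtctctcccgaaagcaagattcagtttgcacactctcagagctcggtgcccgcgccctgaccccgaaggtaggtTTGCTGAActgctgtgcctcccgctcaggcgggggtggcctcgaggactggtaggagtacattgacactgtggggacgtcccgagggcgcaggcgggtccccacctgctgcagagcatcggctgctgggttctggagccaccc

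The other start of Runx1 carried 2 RUNX motifs just after the start, both read on the opposite strand, within chr16:92826025-92826054 (minus strand):
Runx1 start 1: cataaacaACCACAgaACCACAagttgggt

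A TATA box was also held by the promoter of Cebpb, 21 bases after the start, and by the first promoter of Irf8, 31 bases before it. The IRF motif was matched on the opposite strand at 230 and 201 bases before Runx1 start 1 and at 39 bases before Gfi1 start 2. The second promoter of Irf8 held none of the 5 motifs. Distances are counted to the first base of a match, and no matches of different motifs overlapped. GC content ran from 45% at Runx1 start 1 to 80.7% at Cebpb, against a median of 52.7% over all promoters.

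The 6 loci were more densely covered by accessible regions than the chromosomes as a whole. The windows held 13.8 peaks per 100 kb, against 2.16 over the spans of all chromosomes, and peaks covered 9.53% of the windows against 1.21%. Windows around other genes were not compared, so this density is not shown to be particular to these 6 loci. Cebpb was the most densely covered, with 26.7 peaks per 100 kb and 24.1% of its window, and Runx1 had the fewest peaks per 100 kb (10.0), while Irf8 had the lowest covered share (4.63%). The widest gap between neighboring peaks was 37656 bp, at Runx1. Peaks over 2000 bp made up 6 of the 87 members (6.90%) and 2.08% of all peaks, and they lay at Spi1 (2), Cebpb (2), Cebpa (1) and Runx1 (1). The median width was 419 bp for the members and 364 bp for all peaks.

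**Figure D1:**
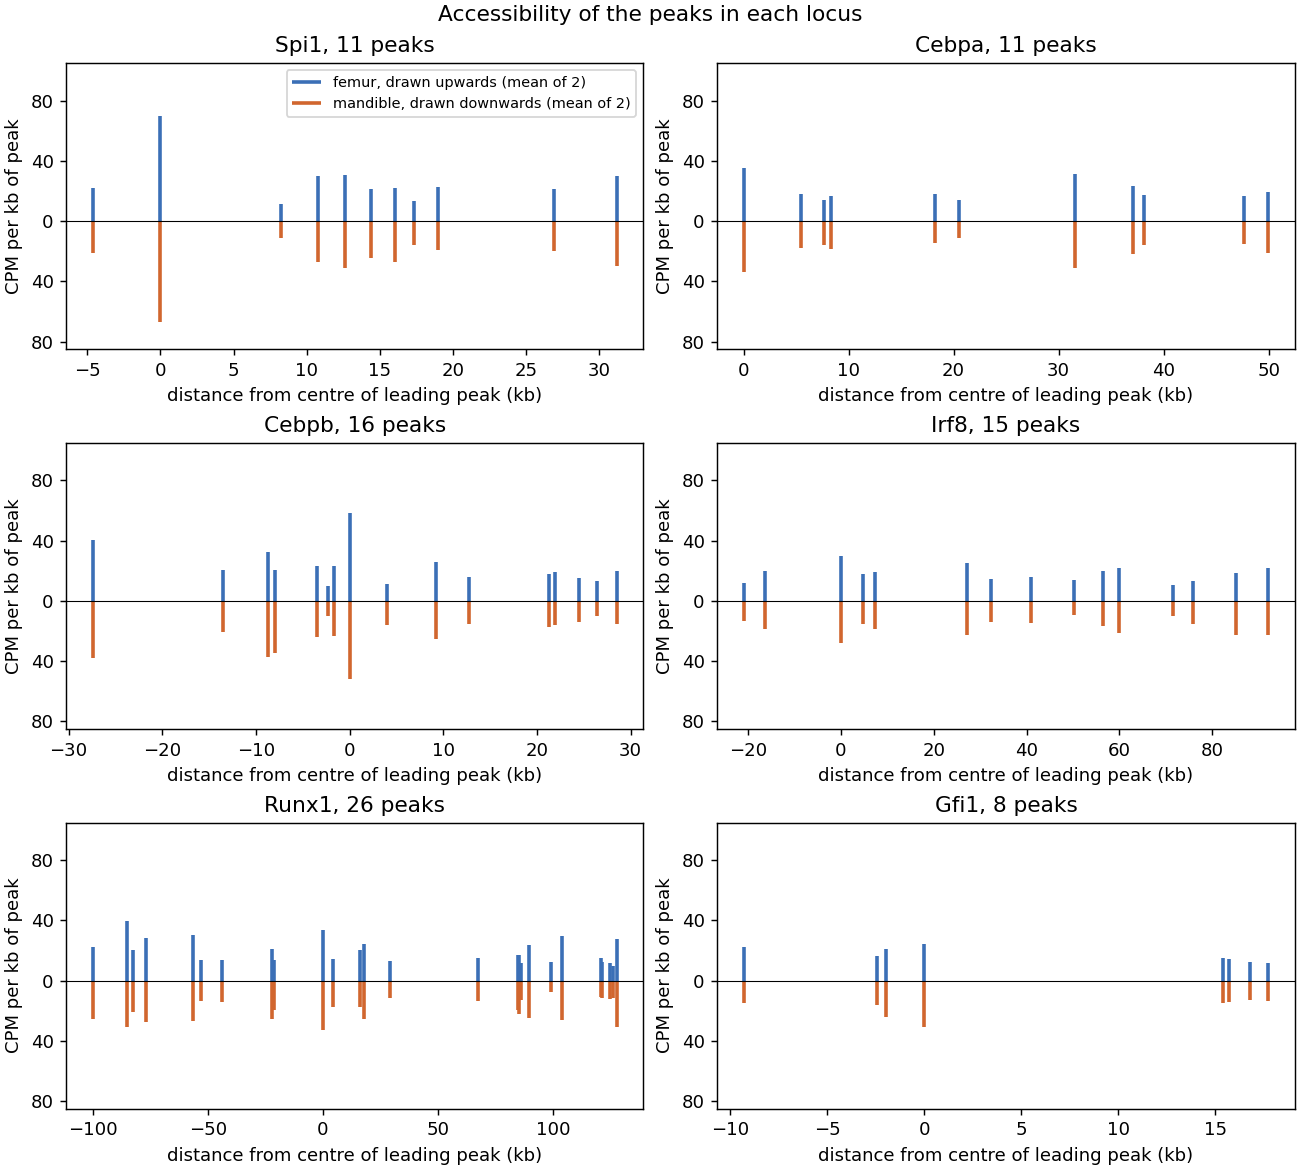
Accessibility of all 87 peaks in the 6 loci, as CPM per kb of peak after loess normalization, by the distance of each peak from the centre of the leading peak of its locus in kb. Bars run upwards for the mean of the 2 femur libraries and downwards for the mean of the 2 mandible libraries. The highest bars are the leading peaks of Spi1 (mean of 68.6 CPM per kb over the 4 libraries) and Cebpb (55.1), and the pattern of bars is much the same above and below the line.

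Levels per length, summed over the peaks of a locus, were compared between loci. In femur, Spi1 was at 29.7 ± 1.96 CPM per kb of peak (SD, n = 2), Cebpb at 27.3 ± 1.71, Cebpa at 26.4 ± 2.43, Runx1 at 22.8 ± 0.487, Irf8 at 20.3 ± 0.675 and Gfi1 at 16.8 ± 0.552. The libraries of Spi1 and Cebpb overlapped, as did those of Cebpb and Cebpa, whereas Cebpa, Runx1, Irf8 and Gfi1 were apart from one another in this order. In mandible the order was the same, with Spi1 at 29.1 ± 1.13, Cebpb at 26.9 ± 1.13, Cebpa at 25.3 ± 2.73, Runx1 at 22.9 ± 2.23, Irf8 at 19.1 ± 0.749 and Gfi1 at 17.3 ± 1.63. There the libraries of Cebpb and Cebpa and those of Cebpa and Runx1 overlapped. Within every single library of either site, the 6 loci followed the same order. All peaks of the genome together were at 31.3 CPM per kb at both sites, a summed level that none of the 6 loci exceeded by its mean. The median single peak was at 19.5 CPM per kb, and the median over the peaks of Spi1 was above it, at 22.9. Medians of the other loci were below it, from 15.7 at Gfi1 to 19.2 at Cebpb. By the summed levels, the 3 highest loci were those encoding PU.1 and both C/EBP factors, and the lowest encodes the repressor GFI1. By the median over single peaks, Cebpa (17.6 CPM per kb) was below Runx1 (18.5) and Irf8 (18.3), so its place depends on the measure.

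The summed levels of the sites overlapped at Spi1, Cebpa, Cebpb, Runx1 and Gfi1. At Irf8 both mandible libraries were below both femur libraries, by little between mandible replicate 2 and femur replicate 1. Among all single peaks the sites did not overlap in 27.1%, so this is not shown to be particular to Irf8. The sums at Irf8 were 110.4 and 115.7 CPM in femur replicates 1 and 2 and 103.1 and 109.0 CPM in mandible replicates 1 and 2. The log2 difference of the Irf8 sum was -0.099 within batch A and -0.087 within batch B. It was -0.00055 and -0.056 for Spi1, -0.077 and -0.045 for Cebpa, and 0.0025 and -0.040 for Cebpb. For Runx1 the batches differed in sign, with -0.11 in batch A and 0.13 in batch B, and likewise for Gfi1, with -0.026 and 0.099.

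None of the 87 members passed an adjusted p-value of 0.05 in edgeR, in either direction, and the adjusted p-value of each rounded to 1. Over all peaks, 0.00701% were called, 0.00525% higher and 0.00175% lower in mandible, so the count of 0 is near the background. At an unadjusted p-value under 0.05 there were 4 members (4.60%), 2 higher in mandible, both at Cebpb, and 2 lower, 1 at Runx1 and 1 at Gfi1, beside 2.71% of all peaks (1.61% higher and 1.1% lower). DESeq2 and TMM normalization each gave 5 members at that level (5.75%), beside 2.81% and 4.54% of all peaks, and none after adjustment. Library size alone gave 7 (8.05%), 1 higher and 6 lower in mandible, with a median log2 fold change of -0.12 over all peaks. The share of all peaks at that level was not counted for library size alone, so those 7 have no background beside them. Both mandible libraries lay above both femur libraries in 10 members and below in 11, together 24.1%, beside 13.3% and 13.8% of all peaks (27.1% together). The median log2 fold change was -0.031 over the members and -0.0044 over all peaks, and single members ran from -0.70 to 0.75. By locus the median was -0.044 at Spi1, -0.084 at Cebpa, -0.052 at Cebpb, -0.092 at Irf8, 0.032 at Runx1 and 0.024 at Gfi1. The sign of these small medians depended on the normalization at Spi1 (0.016 with TMM and 0.026 with DESeq2) and at Gfi1 (-0.043 and -0.032). With library size alone the sign also turned at Runx1 (-0.072).

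**Figure D2:**
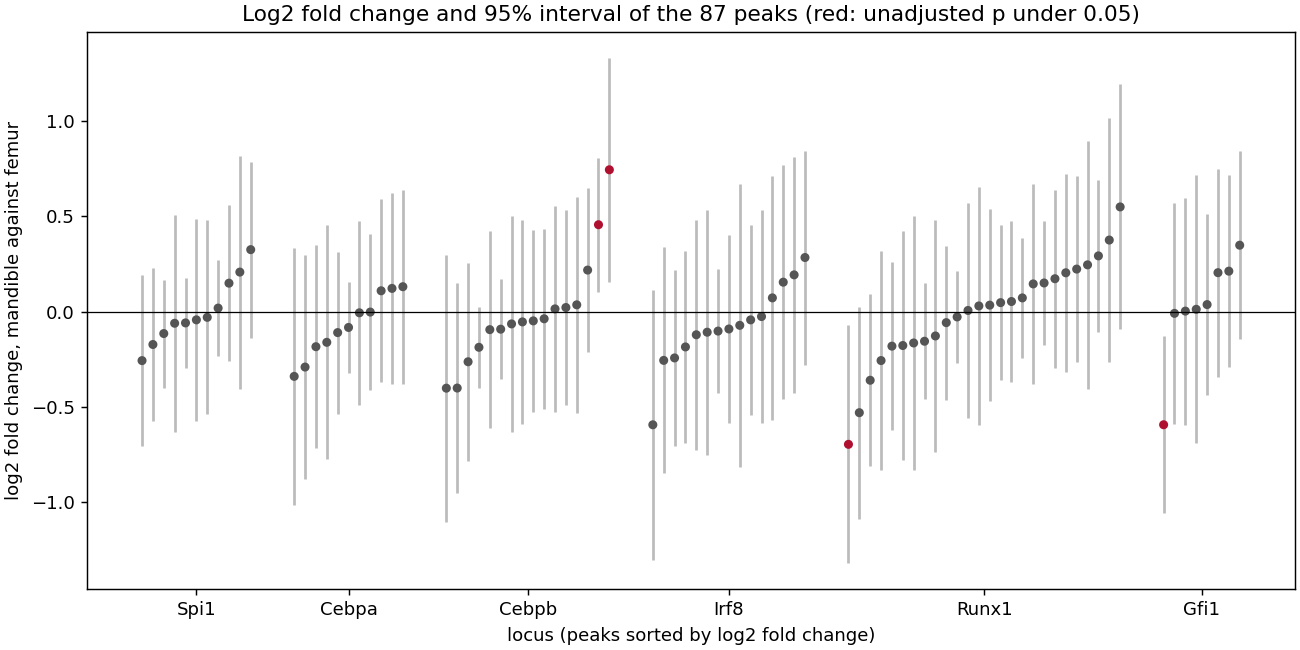
Log2 fold change of mandible over femur for each of the 87 peaks by locus, from edgeR with loess offsets (y axis, log2 scale). Points are peaks, sorted by value within a locus, and vertical lines are unadjusted 95% intervals. The points run from -0.70 at Runx1 to 0.75 at Cebpb, the 4 peaks in red had an unadjusted p-value under 0.05, and no peak passed the adjusted threshold.

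Spi1 was the most accessible of the 6 loci per length. Its leading peak (Peak_30838, chr2:90900086-90901325, 1240 bp) held 29.1% of the CPM in the locus, and its 68.6 CPM per kb exceeded 98.2% of all peaks. The level of this peak was 82.0 and 91.6 CPM in femur replicates 1 and 2 and 86.5 and 80.04 CPM in mandible replicates 1 and 2. The sites overlapped, with the highest and the lowest value both in batch B. In edgeR the log2 fold change was -0.060 (SE 0.112, 95% interval -0.30 to 0.18), and it was 0.13 with TMM normalization and 0.14 with DESeq2, so its sign depends on the normalization. Without femur replicate 2 it was 0.026. The lowest p-value of the locus was that of Peak_30843 (chr2:90916499-90917028), at 11.5 and 11.6 CPM in femur and 12.4 and 16.5 CPM in mandible. Both mandible libraries were above both femur libraries there, by little in mandible replicate 1. Its log2 fold change was 0.33 (SE 0.220, 95% interval -0.14 to 0.79), with 0.52 without mandible replicate 1 and 0.12 without mandible replicate 2. Mandible minus femur kept its sign across the batches in 3 of the 11 Spi1 peaks (27.3%, beside 42.3% of all peaks).

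Cebpa was dominated by a single region. Its leading peak (Peak_47278, chr7:34817437-34820471, 3035 bp) held 54.9% of the CPM in the locus, the largest share of the 6 leading peaks. Its level was 99.1 and 115.7 CPM in femur and 92.5 and 110.3 CPM in mandible, so both libraries of batch B were above both of batch A and the sites overlapped. Mandible over femur was -0.084 on the log2 scale (SE 0.115, 95% interval -0.33 to 0.16), and 0.13 with TMM normalization and with DESeq2 and 0.035 without femur replicate 2. The lowest p-value at Cebpa was that of Peak_47283 (chr7:34839372-34839594), whose level was 3.28 and 2.96 CPM in femur and 1.98 and 2.96 CPM in mandible. Only mandible replicate 1 was low at this peak, with log2 differences of -0.73 (batch A) and 0.0027 (batch B). Its log2 fold change was -0.34 (SE 0.322, 95% interval -1.02 to 0.34), with -0.060 without mandible replicate 1 and -0.67 without mandible replicate 2. The batches shared their sign in 7 of the 11 Cebpa peaks (63.6%, beside 42.3% of all peaks), with mandible higher in 2 and lower in 5.

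Cebpb held the highest single level and both members with a nominal difference toward mandible. The leading peak (Peak_33034, chr2:167529368-167532174, 2807 bp) exceeded 99.3% of all peaks in level. It was at 150.3 and 179.2 CPM in femur and 135.0 and 154.3 CPM in mandible. Mandible was below femur within each batch, with log2 differences of -0.15 and -0.22, while mandible replicate 2 was above femur replicate 1. This gave a log2 fold change of -0.19 (SE 0.102, 95% interval -0.40 to 0.026), against 0.063 with TMM normalization, 0.073 with DESeq2 and -0.052 without femur replicate 2.

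The next peak downstream in coordinates began 259 bp further on and had the opposite sign. This region (Peak_33035, chr2:167532434-167537143, 4710 bp) was the widest member, and its counts were 2903 and 3006 in femur and 2430 and 2046 in mandible, before normalization to the depths of the libraries. As CPM it was at 66.8 and 40.9 in femur and 73.9 and 73.7 in mandible. The mandible libraries were nearly equal and above both femur libraries, and femur replicate 2 was far below the other 3. The log2 fold change was 0.46 (SE 0.168, 95% interval 0.10 to 0.81), with the lowest unadjusted p-value of the 87 members. With the batch as a replicate block it was 0.50 with an adjusted p-value of 0.213 by edgeR, and no member was called in that fit (0.0998% of all peaks were). A block with crossed pairs, added after seeing the data, gave 0.50 with an adjusted p-value of 0.036 by edgeR. That fit called 207 of all 57090 peaks, and this was the only member among them. Without femur replicate 2 the log2 fold change was 0.14, and without femur replicate 1 it was 0.86. The size of this difference therefore depended on which femur library was kept. Another Cebpb peak, Peak_33030 (chr2:167522690-167522878), was not chosen by the rule for named peaks and is given because it was the other nominal one. It was at 4.80 and 3.00 CPM in femur and 6.28 and 6.71 CPM in mandible. Its log2 fold change was 0.75 (SE 0.281, 95% interval 0.16 to 1.34), with 0.39 in batch A and 1.16 in batch B, and femur replicate 2 was again the lowest library. Without that library it was 0.43.

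Irf8 had the narrowest peaks of the 6 loci, with a median of 274 bp and none over 2000 bp. The leading peak (Peak_52483, chr8:121462538-121463699, 1162 bp) was at 35.4 and 33.5 CPM in femur and 31.0 and 33.1 CPM in mandible. Both mandible libraries were below both femur libraries, but mandible replicate 2 and femur replicate 2 had a log2 difference of only -0.015. Over both batches the log2 fold change was -0.10 (SE 0.155, 95% interval -0.43 to 0.22), and -0.015 with TMM normalization. Peak_52489 (chr8:121513249-121513452) had the lowest p-value of the locus, and its level of 2.51 and 3.11 CPM in femur and 1.80 and 1.93 CPM in mandible placed it among the 1.76% of peaks with the lowest level. Mandible over femur was -0.60 on the log2 scale (SE 0.338, 95% interval -1.31 to 0.12), with -0.48 in batch A and -0.69 in batch B, and it was -0.35 without femur replicate 2. Of the 15 Irf8 peaks, 11 had a negative log2 fold change and 4 a positive one (26.7%, beside 49.1% of all peaks). In both batches, 7 were lower in mandible (46.7%, beside 22.0% of all peaks) and 2 were higher (13.3%, beside 20.3%). These peaks come from the same libraries, so they are not independent of one another.

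Runx1 spread its accessibility over the most peaks. The leading peak (Peak_22418, chr16:92493413-92495935, 2523 bp) held 19.7% of the CPM in the locus, the smallest share of the 6 leading peaks. It was at 84.4 and 85.4 CPM in femur and 76.5 and 90.03 CPM in mandible, with both femur libraries between the mandible libraries. This peak had a log2 fold change of -0.028 (SE 0.115, 95% interval -0.27 to 0.21), and 0.15 with TMM normalization, 0.16 with DESeq2 and -0.019 without femur replicate 2. The highest level per length was at another peak, Peak_22410 (chr16:92409350-92409786, 437 bp), with a mean of 35.0 CPM per kb. This peak was at 16.2 and 18.2 CPM in femur and 11.4 and 15.3 CPM in mandible, so the sites did not overlap. Its log2 fold change was -0.36 (SE 0.215, 95% interval -0.81 to 0.090), with -0.17 without mandible replicate 1 and -0.59 without mandible replicate 2. The lowest p-value of the locus belonged to Peak_22428 (chr16:92593416-92593984, 569 bp), at 5.27 and 8.55 CPM in femur and 3.33 and 5.26 CPM in mandible. Femur replicate 2 was high there, and mandible replicate 2 was just under femur replicate 1. The log2 fold change was -0.70 (SE 0.298, 95% interval -1.33 to -0.072), with -0.67 in batch A and -0.70 in batch B, and it was -0.29 without femur replicate 2, -0.41 without mandible replicate 1 and -1.06 without mandible replicate 2. Of the 26 Runx1 peaks, 11 were lower in mandible in batch A and higher in batch B, and 4 went the other way. Over all 57090 peaks these counts were 16346 and 16592.

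Gfi1 had the fewest peaks and the lowest level per length. Its leading peak (Peak_41409, chr5:107855929-107856585, 657 bp) was at 19.9 and 11.9 CPM in femur and 18.0 and 22.4 CPM in mandible. The low value was that of femur replicate 2, and the other 3 libraries were close to one another. The difference was 0.35 on the log2 scale (SE 0.235, 95% interval -0.15 to 0.84), and 0.011 without femur replicate 2. Peak_41406 (chr5:107846615-107847296, 682 bp) had the opposite sign. It was at 13.2 and 17.0 CPM in femur and 9.88 and 10.1 CPM in mandible, with both mandible libraries below both femur libraries. Its log2 fold change was -0.60 (SE 0.221, 95% interval -1.06 to -0.13), with -0.42 in batch A and -0.75 in batch B, and -0.39 without femur replicate 2. Both batches went the same way in 2 of the 8 Gfi1 peaks (25%, beside 42.3% of all peaks), 1 in each direction.

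**Figure D3:**
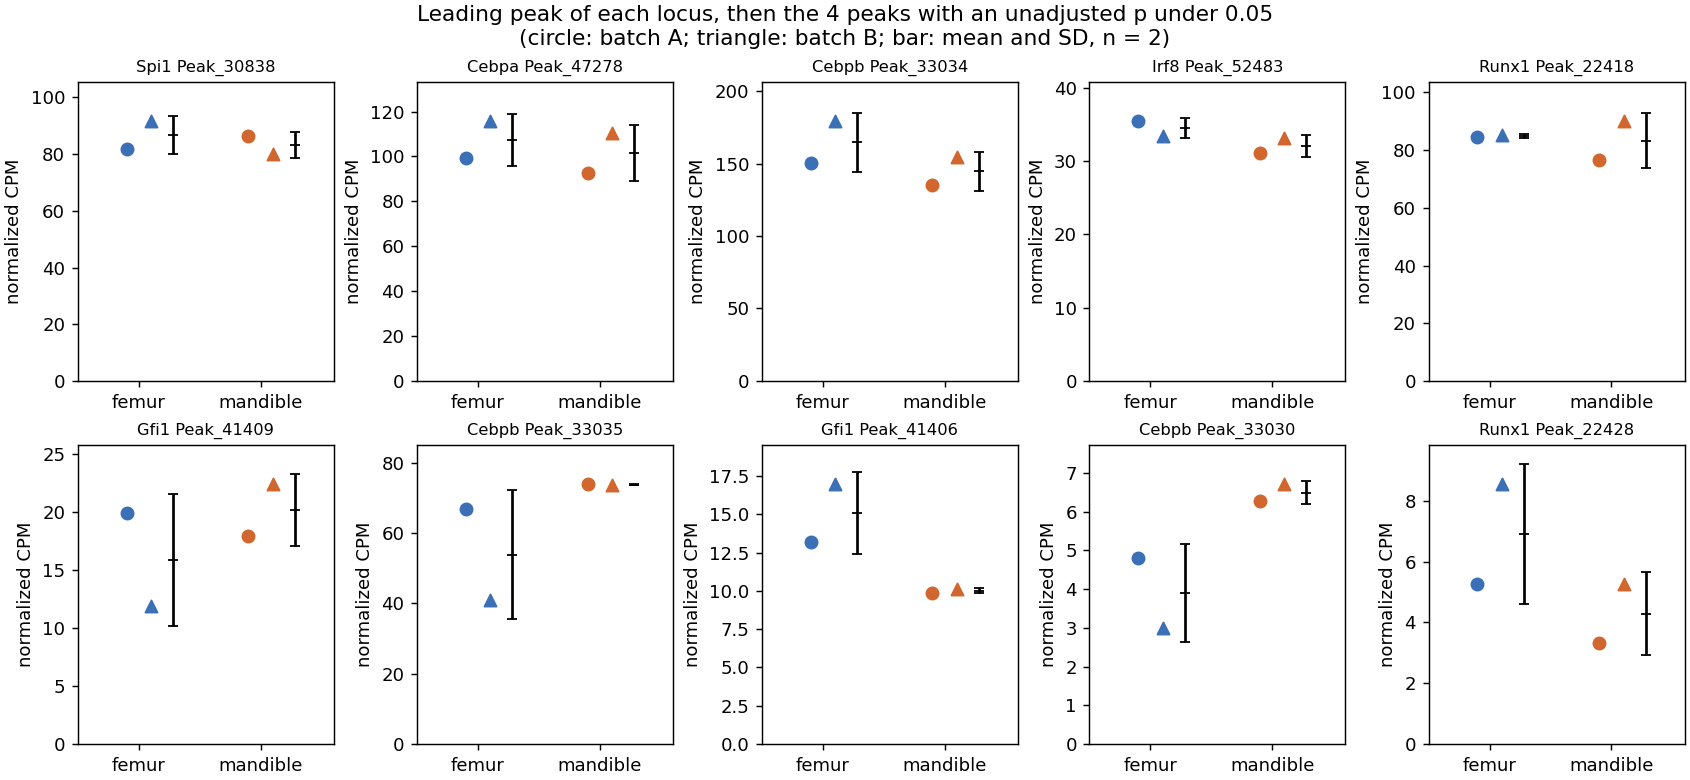
Level of the 6 leading peaks and of the 4 peaks with an unadjusted p-value under 0.05, as CPM after loess normalization (y axis, from 0), with 1 panel per peak. Circles are libraries of batch A, triangles are those of batch B, and bars give the mean and SD of each site (n = 2). Femur replicate 2 stands apart from the other 3 libraries at the Cebpb peak Peak_33035 (40.9 CPM) and at the Gfi1 leading peak Peak_41409 (11.9 CPM).

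The 2 batches, each of which compared the sites within the same pooled mice, shared a direction at the members about as often as over all peaks. Batches A and B shared the sign of the log2 difference in 40 of 87 members (46.0%), beside 42.3% of all peaks. Of these 40 members, 13 were higher in mandible in both batches (14.9% of the members, 20.3% of all peaks) and 27 were lower in both (31.0% of the members, 22.0% of all peaks), while 25 were lower in batch A and higher in batch B and 22 the reverse. The median log2 difference over the members was -0.055 for batch A and -0.069 for batch B.

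**Figure D4:**
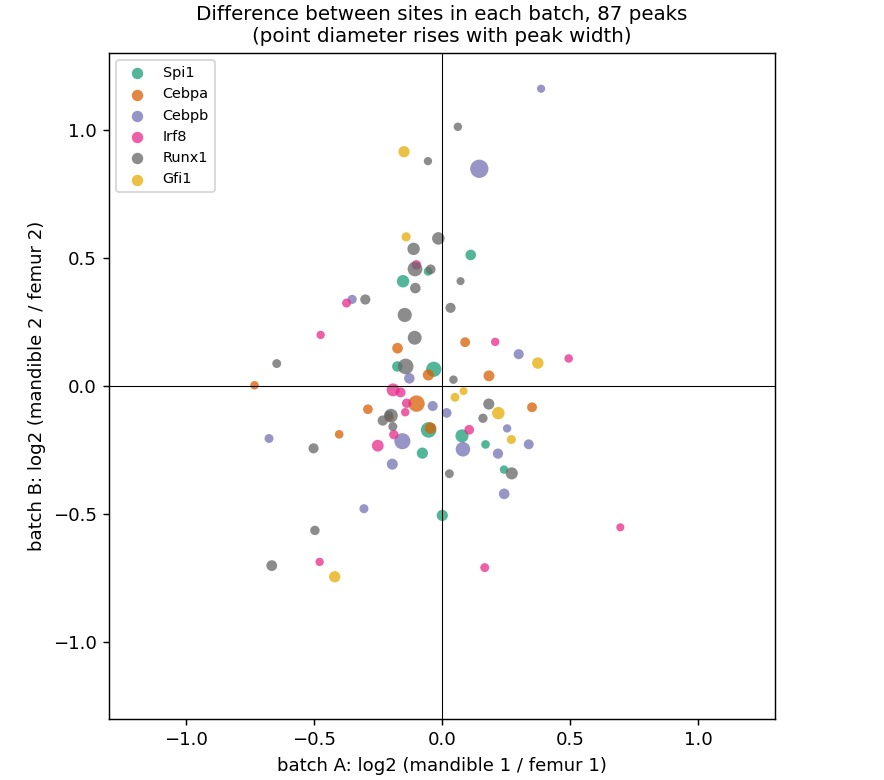
Log2 difference of mandible minus femur in batch B (y axis) against batch A (x axis) for the 87 peaks, after loess normalization. Each point is a peak, colored by locus, and wider peaks have larger points. Of the points, 40 lie in the quadrants where both batches have the same sign, 13 with mandible higher and 27 with mandible lower.

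Femur replicate 2 was the extreme library at many members, more often as the highest. It was the highest of the 4 libraries in 41 members (47.1%) and the lowest in 18 (20.7%), whereas over all peaks these shares were 33.1% and 32.6%. Its median log2 deviation from the mean of the other 3 libraries was 0.14 over the members and 0.011 over all peaks. By locus this deviation was highest at Cebpb (0.27) and Gfi1 (0.26) and lowest at Runx1 (0.018), and single members ran from -0.97 at Peak_33030 to 0.92 at Peak_22428. Mandible replicate 1 was the lowest library in 37 members (42.5%), against 21.7% of all peaks. Without femur replicate 2, no member had an unadjusted p-value under 0.05 by edgeR (1.37% of all peaks did), and the median over the members was 0.045. Without femur replicate 1, which leaves femur replicate 2 as the lone femur library, 7 members passed an adjusted p-value of 0.05 by edgeR (8.05%, beside 4.71% of all peaks). Of these, 4 were higher in mandible, beside 3.75% of all peaks (Peak_22434, Peak_33030, Peak_33035 and Peak_41409) and 3 were lower, beside 0.958% of all peaks (Peak_22428, Peak_33034 and Peak_41406). After thinning all libraries to the lowest depth, the log2 fold change was 0.46 at Peak_33035 and -0.53 at Peak_22428. What else sets femur replicate 2 apart was not tested.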

How the data were processed

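ATAC-seq was measured in femur and mandible monocytes, 2 libraries each. Per the methods, Trimmomatic was used for trimming and Bowtie2 for alignment (GRCm39), duplicates and poorly mapped reads were discarded, Genrich (ATAC mode) was run on the duplicates of each site, and the peaks of both sites were merged with bedtools. The authors deposited raw read counts per merged peak, made with featureCounts 2.0.6 (maximum fragment length 1000 bp, both reads of a pair counted). No transposase shift is stated for them. Because peaks were called per site, only counts were compared.

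In R 4.3.3, edgeR 4.0.16 (glmQLFit, glmQLFTest) was fitted to all 57090 peaks with loess offsets on log CPM (pseudocount 0.5) and the site as the only term, with Benjamini-Hochberg adjustment. The filter of edgeR removed 0 peaks. The common dispersion was 0.0291. Standard errors were the log2 fold change over the square root of F. The fit was tested on simulated data.

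Same-numbered libraries share a batch of pooled mice according to the labels, which pairs them. Their deviations correlated at -0.167. Peaks named were, for each locus, the leading peak, the highest per kb and that with the lowest p-value. The members and lists were chosen with earlier results of these data known. Nearest genes, cell type markers, other haematopoietic factors and likeness between genes were not analysed here, since an annotation of GRCm39 was not used. Alternatives were TMM, library size alone, DESeq2 1.42.0, 2 count filters, the replicate block, thinning to the smallest library, 2 other thresholds (0.01 and 0.1) and each library left out. A block with crossed pairs was added after seeing the data.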

Additional observations from a re-analysis of the deposited data

How the results depend on the processing

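No member passed the adjusted threshold of 0.05 with TMM, library size alone, DESeq2 (37 members had no adjusted p-value), the count filters, thinning or the thresholds of 0.01 and 0.1, and the requirement that peaks lie wholly inside a window removed none. Leaving out peaks near the starts of other genes was not run, as it needs an annotation. The log2 medians depended on the scaling. With TMM they were -0.059 over the members, -0.043 at Cebpa, -0.15 at Irf8, 0.016 at Spi1 and -0.043 at Gfi1, with DESeq2 -0.047 over the members, -0.034 at Cebpa, 0.026 at Spi1 and -0.032 at Gfi1. With library size alone, where all peaks had a median of -0.12, they were -0.16 over the members, -0.14 at Cebpa, -0.25 at Irf8, -0.072 at Runx1 and -0.15 at Gfi1. Thinning gave 0.11 at Gfi1.

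With TMM, library size alone and DESeq2, in this order, the log2 fold change turned positive at Peak_30838 (0.13, 0.028 and 0.14), Peak_47278 (0.13, 0.023 and 0.13) and Peak_22418 (0.15, 0.054 and 0.16), and at Peak_33034 with TMM (0.063) and DESeq2 (0.073). The cause was not tested.

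Leaving out 1 library assumed that a lone library varies like the others. Called members ranged from 0 to 4 higher and 0 to 3 lower, and all 7 came without femur replicate 1. Medians ranged from -0.11 to 0.045 over the members, -0.13 to 0.058 at Spi1, -0.16 to 0.034 at Cebpa, -0.22 to 0.099 at Cebpb, -0.12 to -0.023 at Irf8, -0.036 to 0.099 at Runx1 and -0.18 to 0.24 at Gfi1. The log2 fold change of the leading peaks ranged from -0.14 to 0.026 for Peak_30838, -0.21 to 0.035 for Peak_47278, -0.31 to -0.052 for Peak_33034, -0.15 to -0.056 for Peak_52483, -0.15 to 0.082 for Peak_22418 and 0.011 to 0.77 for Peak_41409. The count filters removed 0 and 7 peaks and so could hardly change a value. The other alternatives gave 117 combinations with the 13 named peaks. Of these, 97 kept direction and side of the threshold and 15 reversed. The rest kept direction and crossed the threshold, all without femur replicate 1, which leaves a lone femur library. The 97 include DESeq2 at Peak_47283, Peak_52489 and Peak_22428, where no adjusted p-value was given, so the side of the threshold is not known there.

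Batch as a replicate block gave 0 called members higher and 0 lower, a median of -0.030 over the members and 57 called peaks in all, against 4 without it, and changed no call of a member. Because the correlation was under -0.1, crossed pairs were also fitted, which called 1 member higher and 207 peaks in all.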
